A study of Mus musculus with 36 samples.

Results

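Livers of male C57BL/6N mice given carbon tetrachloride (CCl4) for 2 months were compared with livers of mice given the oil vehicle for the same time. The groups were taken by their labelled treatment and time, and held 6 libraries each, 12 of the 36 libraries of the series. The CCl4 mice received CCl4 dissolved in olive oil at 1 g/kg body weight, by intraperitoneal injection 2 times a week. The oil mice received olive oil alone on the same schedule. Mice of both groups carried no labelled genetic change, were 8 to 10 weeks old when the injections began, and were sampled on day 6 after the last injection. The series also holds livers at a month 0 baseline, at 6 months of CCl4, and at 12 months of CCl4 or oil. The comparison asked which genes and pathways had changed in early chronic injury. The labels number the samples and do not name the animals, so p-values measure the spread between these samples.

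CCl4 is a solvent that hepatocytes around the central vein convert to reactive radicals, chiefly through the cytochrome P450 enzyme Cyp2e1, so that repeated doses kill cells in that zone. Hepatic stellate cells then take on a matrix-producing state and lay down collagen, and macrophages of monocyte origin enter the liver beside the resident Kupffer cells. Hepatocytes differ by zone along the axis from portal to central vein and by sex, with a large set of genes kept high in male liver by pulses of growth hormone.

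Whole-liver total RNA was depleted of ribosomal RNA and sequenced, and reads were counted per gene. The 12 libraries held between 22078882 and 28917545 counts. Levels are given in CPM, the counts of a gene relative to its library's total after TMM adjustment (trimmed mean of M values), and fold changes are log2 values of CCl4 over oil with their standard error (SE) from the edgeR quasi-likelihood fit. The TMM factors lay between 1.03 and 1.14 in CCl4 libraries and between 0.900 and 0.991 in oil libraries. Genes were called where the p of that test, adjusted by the Benjamini-Hochberg method across the 15338 genes tested, was under 0.05. The hepatocyte marker Alb, which encodes albumin, ran from 47440.2 to 53588.7 CPM in CCl4 livers, against 55438.1 to 71394.7 CPM in oil livers.

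Some libraries carried transcripts of blood cells or of neighbouring organs. CCl4 replicate 1 had a summed level of 13 neutrophil markers of 249.4 CPM, against 25.5 to 37.5 CPM in the other CCl4 livers and 11.9 to 22.8 CPM in oil livers. Its summed erythroid and platelet level was 7392.4 CPM, against 1208.6 to 2110.7 CPM in the other CCl4 livers and 1020.1 to 1835.6 CPM in oil livers. CCl4 replicate 6 carried intestinal epithelium. Sis, the sucrase-isomaltase of the gut lining, stood at 326.3 CPM there and at 0.0342 to 0.509 CPM in the other CCl4 livers. Oil replicate 2 had 15.7 CPM of Sis, against 0.167 to 0.385 CPM in the other oil livers. The intestinal transcription factor genes Cdx1 and Cdx2 were at 0.799 and 1.04 CPM in CCl4 replicate 6, and at or below 0.0440 CPM in the other 11 libraries. Exocrine pancreas transcripts crossed the groups, with 305.7 to 50026.2 CPM in CCl4 livers and 31.9 to 26042.2 CPM in oil livers. Oil replicate 6 had the highest level of adipose, mesothelial and muscle markers (162.9 CPM, against 17.5 to 29.4 CPM in the other oil livers and 20.3 to 39.5 CPM in CCl4 livers). Results are therefore also given without CCl4 replicates 1 and 6, oil replicate 2 and month 12 oil replicate 2, called the 4 libraries below. The month 12 library had 202.4 CPM of adipose, mesothelial and muscle markers. Its Sis level was 0.277 CPM, its intestinal sum 58.3 CPM and its neutrophil sum 23.3 CPM.

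**Figure D1:**
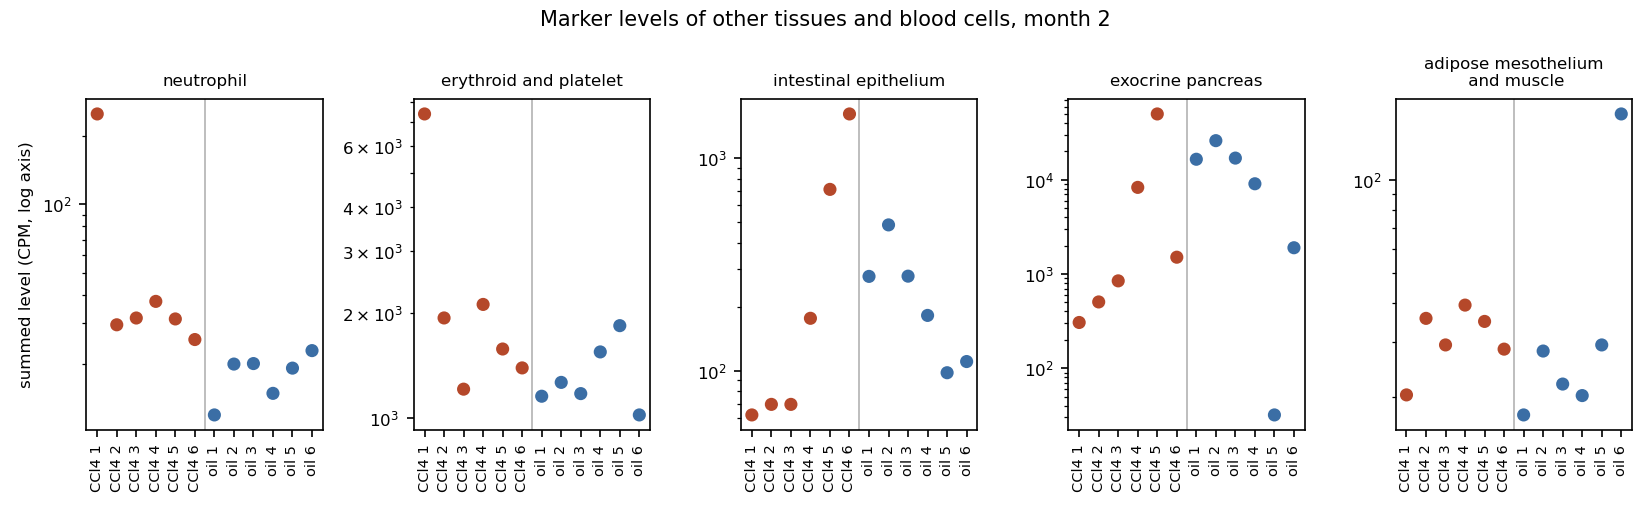
Summed level of marker lists (CPM, log axis) in each of the 12 month 2 libraries, CCl4 in red and oil in blue. CCl4 replicate 1 stands alone for neutrophil (249.4 CPM) and erythroid and platelet markers (7392.4 CPM), CCl4 replicate 6 is highest for intestinal epithelium (1615.4 CPM), and pancreas markers vary in both groups.

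Of the tested genes, 1579 (10.3%) were called, 1063 (6.93%) higher and 516 (3.36%) lower in CCl4 livers. Calls of at least 2-fold numbered 319 higher and 134 lower. All 6 CCl4 livers lay above all 6 oil livers for 712 genes (4.64% of those tested) and below them for 368 (2.40%). When libraries were scaled by their totals without TMM, the median gene shifted by 0.199 on the log2 scale. That setting, library totals alone, called 3150 genes higher and 179 lower, so that 94.6% of calls were higher in place of 67.3%. Changes below are therefore relative to the median gene, whose log2 fold change was 0.00. The shares of all tested genes called higher (6.93%) and lower (3.36%) are those to set beside the counts of each gene list below. Some lists share genes, so their counts are not separate results.

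Without the 4 libraries, 877 of 15612 tested genes were called (5.62%), 539 higher (3.45%) and 338 lower (2.17%). Of the 1579 genes called with all libraries, 804 (50.9%) were called again in the same direction, 513 of them higher and 291 lower, and 1563 kept their sign. The part that the smaller number of libraries had in this was not tested. The lower calls also fell to 335 without CCl4 replicate 6 and to 340 without oil replicate 5. In the account below, a call is said to hold throughout when it was also made in each of the 12 fits that left out 1 library and in the fit without the 4 libraries.

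**Figure D2:**
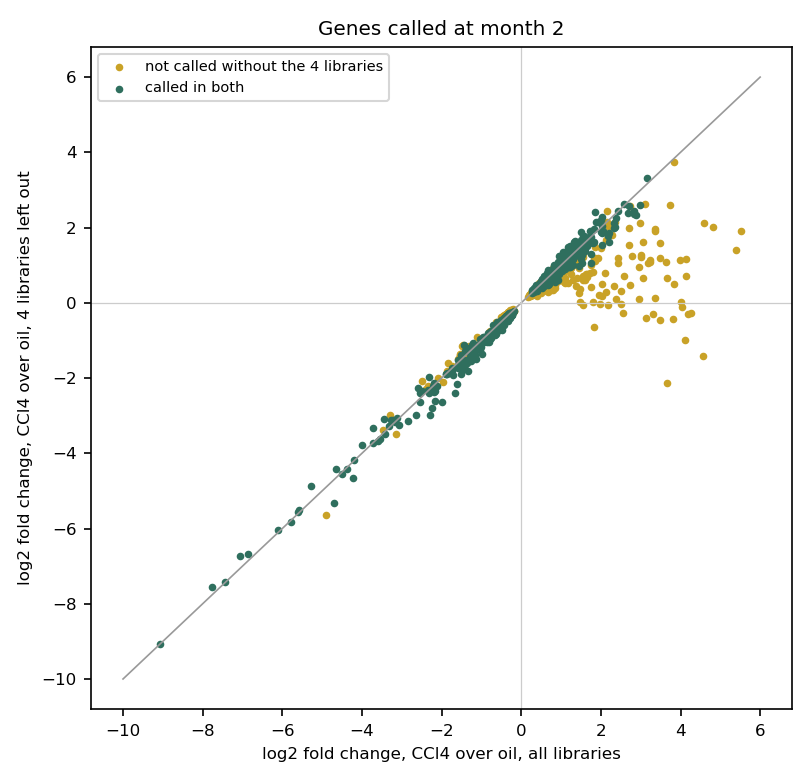
Log2 fold change of each of the genes called at month 2, with all libraries (x axis) and with the 4 libraries left out (y axis). Genes called in both lie near the diagonal, whereas a group of genes with fold changes above 1 on the x axis falls to near 0 on the y axis and is not called there.

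The genes with the highest and lowest fold changes were ranked among genes that were called with and without the 4 libraries and did not overlap between the groups. Hamp2, a close relative of the iron hormone hepcidin on chromosome 7 (30922372 to 30924681, mm10), ranged from 15.3 to 93.2 CPM in CCl4 livers (median 42.7), against 3.27 to 6.85 CPM in oil livers (median 4.63). Its log2 fold change was 3.16 (SE 0.59, adjusted p = 0.000592), while Hamp itself stood at a median of 356.3 CPM in CCl4 livers and 406.2 CPM in oil livers and was not called (log2 fold change -0.17, SE 0.45). Reads shared between these near-identical genes make the split between them uncertain. Cyp26a1, which clears retinoic acid, ranged from 51.0 to 90.6 CPM in CCl4 livers (median 57.7), against 3.61 to 19.1 CPM in oil livers (median 14), a rise of 2.35 (SE 0.36, adjusted p = 5.29e-05).

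Mmp2, a gelatinase that cleaves collagen (chromosome 8, 92827291 to 92853420), ranged from 11.5 to 16.9 CPM in CCl4 livers (median 15.1), against 2.31 to 6.47 CPM in oil livers (median 3.27). Its log2 fold change was 2.03 (SE 0.27, adjusted p = 6.26e-06). Cdkn2c, an inhibitor of cyclin-dependent kinases 4 and 6, ranged from 10.6 to 12.9 CPM in CCl4 livers and from 1.85 to 5.32 CPM in oil livers (log2 fold change 1.89, SE 0.20, adjusted p = 8.04e-08). Apoa4, an apolipoprotein made by gut and by fat-laden liver, ranged from 244.8 to 803.6 CPM in CCl4 livers and from 65.9 to 119.8 CPM in oil livers (log2 fold change 2.03, SE 0.38), and its fold change was 1.53 without the 4 libraries. The other genes of the 12 highest were Tcf24 (2.87), the secreted protein gene Scube1 (2.84), the granzyme gene Gzma of cytotoxic lymphocytes (2.20), the macrophage receptor gene Clec4e (2.04), the protease inhibitor gene Wfdc2 (1.83), the basement membrane collagen gene Col4a5 (1.82) and the ephrin receptor gene Epha3 (1.79). Calls for all 12 held throughout.

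The lowest fold changes were dominated by major urinary proteins, pheromone carriers that male mouse liver secretes in bulk, and by cytochrome P450 genes of the Cyp2c family. Mup19 (chromosome 4, 61778324 to 61782269) ranged from 5.71 to 50.3 CPM in CCl4 livers (median 10.9), against 6259.2 to 11413.0 CPM in oil livers (median 10288.0). This was a fall of 9.07 in log2 terms, with an SE of 1.04 (adjusted p = 5.20e-07). Mup15, Mup17, Mup12, Mup21 and Mup9 had log2 fold changes between -7.05 and -3.71. The Mup genes are near-identical copies, and the sources used here do not say how reads were split among them, so the value of any 1 copy is uncertain. Mup20 had a median of 6674.5 CPM in CCl4 livers and 7693.2 CPM in oil livers and was not called (log2 fold change -0.28, SE 0.41). Mup3 had medians of 5378.1 CPM in CCl4 livers and 8678.4 CPM in oil livers, and was not called (-0.67, SE 0.32) although its groups did not overlap.

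Fitm1, an endoplasmic reticulum protein that promotes lipid droplet formation (chromosome 14, 55575617 to 55576954), ranged from 0.280 to 0.859 CPM in CCl4 livers (median 0.357), against 10.9 to 40.1 CPM in oil livers (median 20.2). It fell by 5.58 (SE 0.65, adjusted p = 5.66e-07). Susd4, a complement regulator that is higher in male than in female liver (chromosome 1, 182763860 to 182896591), ranged from 1.08 to 1.64 CPM in CCl4 livers and from 21 to 34.3 CPM in oil livers (log2 fold change -4.37, SE 0.34, adjusted p = 2.64e-10). Nxpe2 ranged from 1.76 to 2.36 CPM in CCl4 livers and from 18.8 to 29.8 CPM in oil livers (log2 fold change -3.55, SE 0.32). Among Cyp2c genes, Cyp2c69, Cyp2c40 and Cyp2c38 fell by 5.78, 4.22 and 3.59, and the first of these was listed at 0 to 0.299 CPM in CCl4 livers, against 2.09 to 17.6 CPM in oil livers. All 12 of the lowest genes were also called in each fit that left out 1 library, and with limma-voom the call of Cyp2c69 was lost. Here too a call without the 4 libraries was a condition of the ranking.

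**Figure D3:**
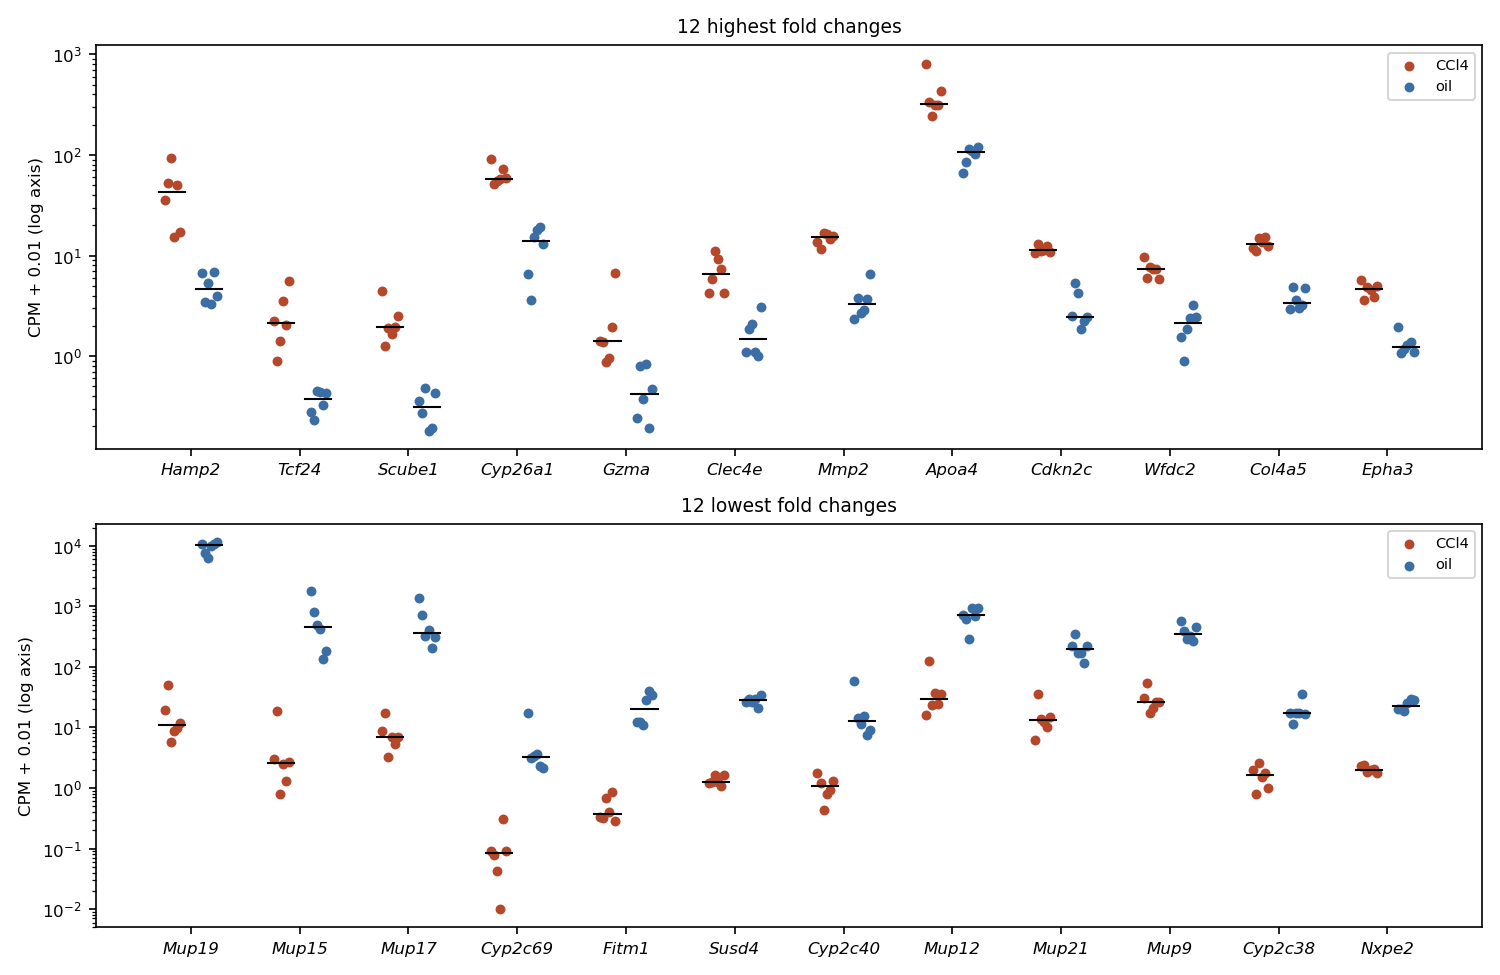
CPM + 0.01 (log axis) of the 12 genes with the highest and the 12 with the lowest fold changes, 1 point per library and black lines at the medians, CCl4 in red left of oil in blue. Absence of overlap, and a call both with and without the 4 libraries, were conditions for choosing these 24 genes. Mup19 has a median of 10.9 CPM in CCl4 livers, against 10288.0 CPM in oil livers.

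Structural collagens formed the clearest of the matrix groups. Of 14 tested fibrillar and type VI collagen genes and their associates, 9 were called higher and 0 lower, with a median log2 fold change of 0.86 over the 14. Without the 4 libraries 8 were called, and the same 8 held throughout, the exception being Col16a1. Their summed level ran from 584.4 to 836.8 CPM in CCl4 livers and from 250.5 to 497.7 CPM in oil livers, without overlap. In whole liver, more matrix-producing cells and more RNA per cell cannot be told apart, here and in every cell type described below.

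Col6a3, a chain of type VI collagen (chromosome 1, 90765923 to 90843971), ranged from 33.8 to 44.5 CPM in CCl4 livers (median 42.7), against 12.7 to 19.1 CPM in oil livers (median 14). Its log2 fold change was 1.45 (SE 0.15, adjusted p = 1.07e-07). Col1a2, a chain of type I collagen, ranged from 64.3 to 108.0 CPM in CCl4 livers and from 17.7 to 55.0 CPM in oil livers (log2 fold change 1.44, SE 0.31, adjusted p = 0.00291). Col1a1, the other type I chain (chromosome 11, 94936224 to 94953042), did overlap: its lowest CCl4 liver, at 26.2 CPM, was below the highest oil liver, at 29.1 CPM. It rose by 1.40 (SE 0.37, adjusted p = 0.0131). Col3a1 and Col5a2 rose by 1.28 (SE 0.31) and 1.12 (SE 0.23), and Col14a1, which binds to fibril surfaces, by 0.60 (SE 0.10).

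The basement membrane gained 6 calls among 15 genes and lost none (median 0.49). Lama2, a laminin chain, ranged from 9.60 to 15.1 CPM in CCl4 livers and from 2.45 to 5.5 CPM in oil livers (log2 fold change 1.66, SE 0.19, adjusted p = 3.55e-07). The type IV collagens Col4a5, Col4a2 and Col4a1 rose by 1.82, 0.73 and 0.77, although the call for Col4a1 was lost without the 4 libraries (0.69, adjusted p = 0.0527), as was that for Lamb1. Of 25 proteoglycan and elastic fibre genes, 10 were called higher and 0 lower (median 0.63), and all 10 calls held throughout. Lum, a small proteoglycan that spaces collagen fibrils (chromosome 10, 97565128 to 97572703), ranged from 39.7 to 63.1 CPM in CCl4 livers (median 58.8), against 11.5 to 23 CPM in oil livers (median 17.4), a rise of 1.71 (SE 0.21, adjusted p = 8.03e-07). The microfibril genes Fbn2, Mfap4 and Emilin1 rose by 2.20 (SE 0.35), 1.58 (SE 0.32) and 0.63 (SE 0.13). Fbn2 was low in both groups, at 0.509 to 1.05 CPM in CCl4 livers and 0.0440 to 0.192 CPM in oil livers.

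Of 15 adhesive matrix genes, 5 were called higher and 0 lower (median 0.66), and each call held throughout. They were Sparc (0.91, SE 0.18), which binds collagen during assembly, Tnc (1.57, SE 0.32), Dpt (1.37, SE 0.29), Sparcl1 (1.22, SE 0.26) and Thbs2. Among 21 crosslinking and processing genes, 5 were called higher (median 0.33). Of these, Loxl2, a lysyl oxidase that crosslinks collagen (1.10, SE 0.17, adjusted p = 6.22e-05), and Adamts2, which trims procollagen (0.72, SE 0.14), held throughout. That count was 3 without CCl4 replicate 4, without CCl4 replicate 6 or without oil replicate 3, and 2 without oil replicate 4. Lox, the founding member of the family, ranged from 0.999 to 4.26 CPM in CCl4 livers and from 0.462 to 3.21 CPM in oil livers, and was not called (log2 fold change 0.71, SE 0.52).

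Matrix proteases and their inhibitors gained 6 calls among 23 genes (median 0.60), of which Mmp2, Adamts5 and the macrophage elastase gene Mmp12 held throughout. Mmp12 ranged from 16.4 to 39.4 CPM in CCl4 livers and from 6.31 to 22.1 CPM in oil livers, with overlap (log2 fold change 1.27, SE 0.30, adjusted p = 0.00574). The calls for Mmp7, Mmp8 and Mmp11 were lost without the 4 libraries. Timp1, an inhibitor of matrix proteases often used to follow fibrosis, had a median of 2.12 CPM in CCl4 livers and 2.10 CPM in oil livers, and was not called (log2 fold change 0.31, SE 0.61).

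Of 22 signals and receptors that drive fibrosis, 6 were called higher and 0 lower, with a median of 0.40. Pdgfrb, the receptor for platelet-derived growth factor on stellate cells, ranged from 16.1 to 19.5 CPM in CCl4 livers (median 17.4), against 7.16 to 12.7 CPM in oil livers (median 9.17). It rose by 0.92 (SE 0.16, adjusted p = 0.000197). Its relative Pdgfra rose by 0.73 (SE 0.19), and the ligand gene Tgfb1 by 0.67 (SE 0.18, adjusted p = 0.0115) with overlapping groups. Calls for these 3 genes held throughout.

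Contractile genes of myofibroblasts had a median of 0.07 with all libraries and -0.35 without the 4 libraries. Of 14 tested, 1 was called higher, Vim (0.77, SE 0.24, adjusted p = 0.0380), and its call was lost without any 1 of CCl4 replicates 3, 4, 5 and 6 or oil replicates 1 to 5, at fold changes between 0.70 and 0.79. Without the 4 libraries Vim was called (0.82, adjusted p = 0.0395) and Cald1, an actin-binding protein gene, was called lower (-0.34, adjusted p = 0.0271). Acta2, the smooth muscle actin by which myofibroblasts are usually recognised, ranged from 4.87 to 15.4 CPM in CCl4 livers (median 7.12) and from 5.53 to 13.6 CPM in oil livers (median 7.52). Its log2 fold change was -0.04 (SE 0.30), and -0.58 without the 4 libraries. The intestinal markers of CCl4 replicate 6 are given above, and the part of gut muscle in these levels was not tested. Leaving out CCl4 replicate 1 gave 1 call higher and 1 lower in the list, and oil replicate 6 gave 2 higher. The list of stellate cell identity was mixed, with 3 genes called higher and 2 lower among 16, beside 6.93% and 3.36% of all tested genes. Ednrb, an endothelin receptor, rose by 0.84 (SE 0.12, adjusted p = 1.66e-05) and Hhip, a decoy for hedgehog ligands, fell by 1.04 (SE 0.20, adjusted p = 0.000868), and both calls held throughout. Ntm (-0.78) lost its call without the 4 libraries.

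**Figure D4:**
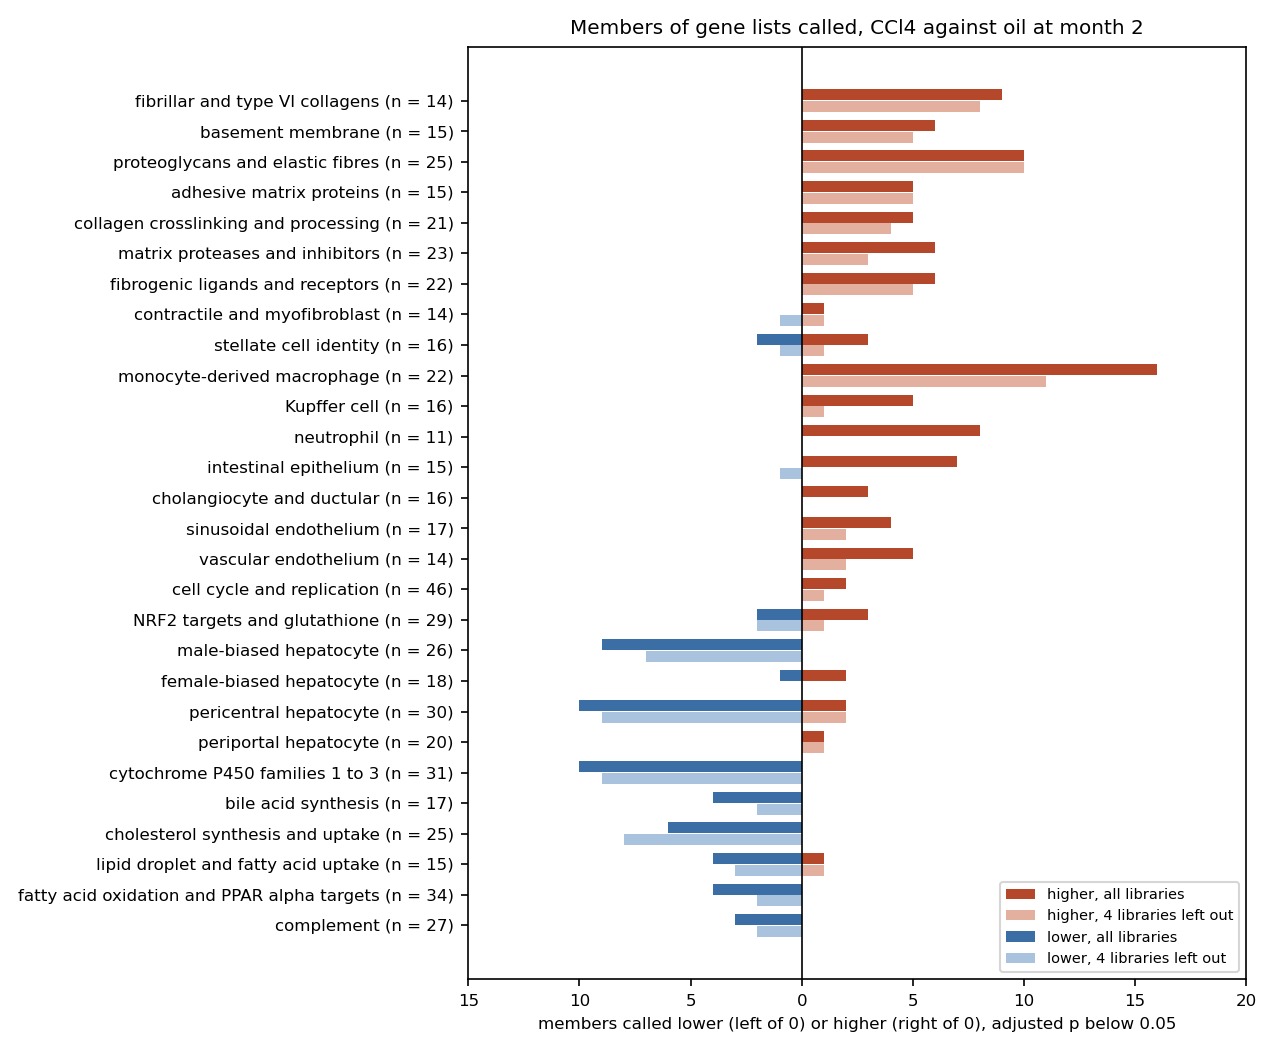
Number of members of each gene list called lower (left of 0) or higher (right of 0), dark bars with all libraries and light bars without the 4 libraries, with the number of tested members in brackets. Structural collagen, proteoglycan, monocyte-derived macrophage, male-biased, pericentral and P450 lists keep most of their calls without the 4 libraries and matrix proteases keep 3 of 6, whereas neutrophil (8 and 0), intestinal (7 and 0) and cholangiocyte (3 and 0) calls higher with all libraries do not.

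Macrophage genes were the largest immune group. Of 22 tested markers of monocyte-derived macrophages, 16 were called higher and 0 lower, with a median log2 fold change of 0.90. Without the 4 libraries 11 were called (median 0.89), and 9 held throughout. Leaving out oil replicate 1 gave 10. Their summed level ran from 1886.5 to 2595.2 CPM in CCl4 livers and from 1358.5 to 1823.5 CPM in oil livers, without overlap. The neutrophil list, whose level was highest in CCl4 replicate 1, has no gene in common with the macrophage list. The part of neutrophil transcripts in these calls was not tested.

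Trem2, by which macrophages sense lipids and dying cells (chromosome 17, 48346401 to 48354147), ranged from 11 to 15.9 CPM in CCl4 livers (median 13), against 5.31 to 10.2 CPM in oil livers (median 6.43). It rose by 0.89 (SE 0.20, adjusted p = 0.00310). Cd63, a lysosomal membrane protein, ranged from 9.81 to 16.9 CPM in CCl4 livers and from 3.73 to 7.93 CPM in oil livers (log2 fold change 1.25, SE 0.22, adjusted p = 0.000339). Cx3cr1, the fractalkine receptor of monocytes, and Itgax, an integrin of inflammatory macrophages and dendritic cells, rose by 1.31 (SE 0.24) and 1.22 (SE 0.26). Ly6c2, which marks freshly recruited monocytes, was not called (-0.05, SE 0.30), nor was Spp1 (0.91, SE 0.43). Cxcl16 was the 1 chemokine called among 20, with a rise of 0.72 (SE 0.15) that held throughout. Leaving out CCl4 replicate 2 or 4, or oil replicate 4 or 6, gave 2 chemokines.

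Calls for Kupffer cell genes depended more on single libraries. Of 16 tested, 5 were called higher and 0 lower (median 0.44), and Adgre1, the F4/80 antigen of macrophages in general, was the 1 that held throughout (0.70, SE 0.19, adjusted p = 0.0126). The count was 1 without CCl4 replicate 1, CCl4 replicate 3 or oil replicate 5, and 2 without oil replicate 1 or oil replicate 3. The other called members were Cd5l (0.85, SE 0.26), C1qb (0.56, SE 0.16), C1qc (0.52, SE 0.16) and Csf1r (0.54, SE 0.17), with fold changes of 0.86, 0.52, 0.52 and 0.55 without the 4 libraries, where they were not called. Of the other resident cell markers, Clec4f ranged from 98.0 to 153.0 CPM in CCl4 livers and from 117.8 to 153.7 CPM in oil livers (log2 fold change -0.20, SE 0.20). Timd4 had medians of 11.1 CPM in CCl4 livers and 8.96 CPM in oil livers (0.06, SE 0.42), and Cd163 medians of 31.9 and 36.6 CPM in the same order (-0.23, SE 0.21), and these 3 genes were not called.

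Of 18 tested T and NK cell genes, 3 were called higher and 1 lower. Over all tested genes 6.93% were called higher and 3.36% lower, the shares to set beside the counts of this paragraph. Ncr1, a receptor of natural killer cells, ranged from 0.645 to 1.08 CPM in CCl4 livers and from 0.0880 to 0.228 CPM in oil livers (log2 fold change 2.33, SE 0.41, adjusted p = 0.000232). It held throughout together with Gzma (2.20, SE 0.51), while Klrd1 (1.13) lost its call without the 4 libraries. Cd4 (-1.05) lost its call there and without any 1 of CCl4 replicates 4, 5 and 6 or oil replicates 1, 4 and 6. Of 10 dendritic cell genes 3 were called higher, 0 without the 4 libraries, and 1 without any 1 of CCl4 replicates 1, 3 and 6 or oil replicates 1 and 5. By edgeR 0 of 11 MHC class II genes were called (median 0.47), with 5 at an unadjusted p below 0.05 and 1 called by DESeq2 and by limma-voom. Leaving out oil replicate 4 called 3 of them and CCl4 replicate 2 called 1, and library totals alone called 5. Of 10 B and plasma cell genes 0 were called by edgeR, DESeq2 or limma-voom, 2 had an unadjusted p below 0.05, and leaving out CCl4 replicate 5 or oil replicate 6 called 1.

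Several lists lost higher calls when single libraries were left out. Of 11 neutrophil genes, 8 were called higher with all libraries, 1 without CCl4 replicate 1 and 0 without the 4 libraries, and leaving out oil replicate 4 or oil replicate 5 gave 5. The median of the list was 2.04 with all libraries and 1.05 without the 4 libraries. Retnlg, a resistin-like gene of neutrophils, was called in each fit that left out 1 library (1.44 to 2.14) and did not overlap between the groups, but was not called without the 4 libraries (1.46, adjusted p = 0.0630). S100a8, a calcium-binding protein of neutrophils, was at 78.9 CPM in CCl4 replicate 1 and at 4.92 to 8.61 CPM in the other CCl4 livers, against 1.81 to 4.47 CPM in oil livers. Its log2 fold change was 2.42 (SE 0.59), 0.92 without CCl4 replicate 1, and 1.05 without the 4 libraries (adjusted p = 0.203). Of 14 erythroid and platelet genes, 2 were called with all libraries, 0 without CCl4 replicate 1 or any 1 of oil replicates 1, 2, 3, 4 and 6, and 1 without oil replicate 5. Of 15 intestinal genes, 7 were called higher with all libraries. Without CCl4 replicate 6, 0 were higher and 2 lower, and leaving out an oil library gave 3 (oil replicates 1, 4 and 5) or 4 (oil replicates 3 and 6). The 7 intestinal genes called higher included Vil1, the villin of the brush border, at 57.3 CPM in CCl4 replicate 6 and 0.117 to 0.363 CPM in the other CCl4 livers. Its fold change was 4.18 with all libraries and -1.26 without CCl4 replicate 6.

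The same library carried the ductular calls. Of 16 cholangiocyte and ductular genes, 3 were called higher, Epcam, Cftr and Cldn4, all 3 also expressed in gut epithelium, and 0 were called without CCl4 replicate 6 or without the 4 libraries. Epcam was at 33.2 CPM in CCl4 replicate 6 and at 0.718 to 1.69 CPM in the other CCl4 livers, against 0.501 to 2.55 CPM in oil livers (log2 fold change 2.51 with all libraries and 0.08 without CCl4 replicate 6). Leaving out CCl4 replicate 2 called 6 genes of the list. Krt19 was not called (1.48, SE 0.51, adjusted p = 0.0572, and 0.76 without the 4 libraries), nor was Sox9, with medians of 1.69 CPM in CCl4 livers and 1.71 CPM in oil livers (-0.08, SE 0.35). Heph (1.64), Abcb1a (1.45) and Pkm (0.81) lost their calls without CCl4 replicate 6, at fold changes of 0.69, 0.82 and 0.69. Orm3 (1.93) lost its call without CCl4 replicate 1, at 1.17.

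Endothelial genes gave a few calls that held. The counts of this paragraph stand beside 6.93% of all tested genes called higher. Of 17 sinusoidal genes 4 were called higher, 2 of them (Lyve1 and Maf) throughout. Lyve1, the hyaluronan receptor of sinusoids, ranged from 16.3 to 20.4 CPM in CCl4 livers and from 5.43 to 14.8 CPM in oil livers (log2 fold change 1.02, SE 0.23, adjusted p = 0.00444). Of 14 vascular genes 5 were called, with Vwf (1.02, SE 0.21) and Ackr1 (1.57, SE 0.36) throughout. That count was 3 without any 1 of CCl4 replicates 1, 3 and 5 or oil replicates 2, 3, 5 and 6. The annexins Anxa5 (0.40, SE 0.09) and Anxa3 (0.81, SE 0.19) were the 2 genes called among 16 of an injured-epithelium list, and both held throughout.

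On the hepatocyte side, of 26 genes that are higher in male than in female liver, 9 were called lower and 0 higher, with a median log2 fold change of -0.66, and 7 held throughout. Elovl3, a fatty acid elongase, and Hsd3b5, a steroid dehydrogenase, had medians of 6.28 and 40.0 CPM in CCl4 livers, against 149.2 and 312.0 CPM in oil livers (log2 fold changes -3.43, SE 0.69, and -2.60, SE 0.54). Cyp2u1 ranged from 11.7 to 32.4 CPM in CCl4 livers and from 46.0 to 108.0 CPM in oil livers (log2 fold change -1.60, SE 0.26, adjusted p = 9.04e-05). Slco1a1, a hepatic uptake transporter of organic anions, ranged from 158.4 to 433.9 CPM in CCl4 livers and from 783.6 to 954.4 CPM in oil livers (log2 fold change -1.50, SE 0.29).

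Moxd1 was uneven in oil livers, from 0.0456 to 47.7 CPM, against 0.0323 to 1.26 CPM in CCl4 livers (log2 fold change -5.60, SE 0.99), and limma-voom did not call it. The call for Cyp7b1 (-1.55) was lost without the 4 libraries (adjusted p = 0.0514). Of 18 female-biased genes, 15 had a positive fold change, 2 were called higher and 1 lower (median 0.78). Without the 4 libraries 0 were called, at a median of 0.75. Cyp3a44 was called in each fit that left out 1 library. Cyp3a44 (2.71) and Sult3a1 (3.11) stood at or below 1.21 CPM in every CCl4 liver. Leaving out CCl4 replicate 1 gave 1 call. In the growth hormone pathway, Igf1 ranged from 526.1 to 667.7 CPM in CCl4 livers and from 503.3 to 603.2 CPM in oil livers (log2 fold change 0.08, SE 0.12), and Socs2 was not called (-0.03, SE 0.48).

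Pericentral genes are expressed around the central vein, where CCl4 is activated. Of 30 tested, 10 were called lower and 2 higher (median -0.42), and 11 of the 12 calls held throughout, the exception being Slc1a2. Cyp2c37 (chromosome 19, 39992424 to 40012243) ranged from 34.3 to 72.5 CPM in CCl4 livers (median 49.4), against 211.0 to 516.1 CPM in oil livers (median 260.2), a fall of 2.55 (SE 0.35, adjusted p = 7.79e-06). Oat, the ornithine aminotransferase of the central vein layer, ranged from 161.8 to 328.6 CPM in CCl4 livers and from 1030.0 to 1733.5 CPM in oil livers (log2 fold change -2.34, SE 0.37, adjusted p = 6.41e-05). Lhpp (-2.20, SE 0.32), the cation transporter gene Slc22a3 (-2.18, SE 0.34) and Cyp2c29 (-1.46, SE 0.23) fell as well.

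The 2 pericentral genes that rose were Car2, a carbonic anhydrase (1.44, SE 0.23, and 0.97 without the 4 libraries), and Rhbg, an ammonium transporter (1.20, SE 0.28). Car2 was at 14.9 CPM in CCl4 replicate 1 and 16.4 CPM in CCl4 replicate 6. The other CCl4 livers had 5.91 to 8.20 CPM of it, and oil livers 2.63 to 4.35 CPM. The part of blood and gut transcripts in the Car2 level was not tested. Cyp2e1, the enzyme that activates CCl4, ranged from 2251.9 to 3566.2 CPM in CCl4 livers (median 3312.4), against 4502.8 to 6100.5 CPM in oil livers (median 5184.7). The groups did not overlap, but the gene was not called (log2 fold change -0.73, SE 0.26, adjusted p = 0.0704). Glul, the glutamine synthetase of the innermost layer, likewise ranged from 365.4 to 523.2 CPM in CCl4 livers and from 624.7 to 893.2 CPM in oil livers, without a call (-0.82, SE 0.30, adjusted p = 0.0828). Of 20 periportal genes, 1 was called higher, the cathepsin gene Ctsc (0.76, SE 0.17), which macrophages also express. Axin2 and Lgr5, targets of the Wnt signal that maintains the pericentral zone, were not called (0.28, SE 0.34, and -0.36, SE 0.37).

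Of 31 listed cytochrome P450 genes of families 1 to 3, 10 were called lower, all of them Cyp2 genes, and 0 higher (median -0.20), and 9 held throughout, all but Cyp2c68. Of these 10, Cyp2c37, Cyp2c29, Cyp2c50 and Cyp2c54 are also counted among the pericentral calls above, and Cyp2u1 among the male-biased ones. Cyp2c67 ranged from 63.7 to 113.8 CPM in CCl4 livers (median 79.2), against 374.3 to 547.8 CPM in oil livers (median 453.9), and fell by 2.49 (SE 0.22, adjusted p = 1.49e-09). Several Cyp2c genes are close copies of each other and may share reads. Cyp1a2 (-0.10, SE 0.28) and Cyp3a11 (0.67, SE 0.37), major enzymes of drug metabolism, were not called. Of 34 conjugation genes, 1 was called higher and 1 lower, beside 6.93% higher and 3.36% lower over all tested genes. Ugt1a9 rose by 1.26 (SE 0.29) and Ugt3a1 fell by 0.91 (SE 0.22), and both calls held throughout.

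**Figure D5:**
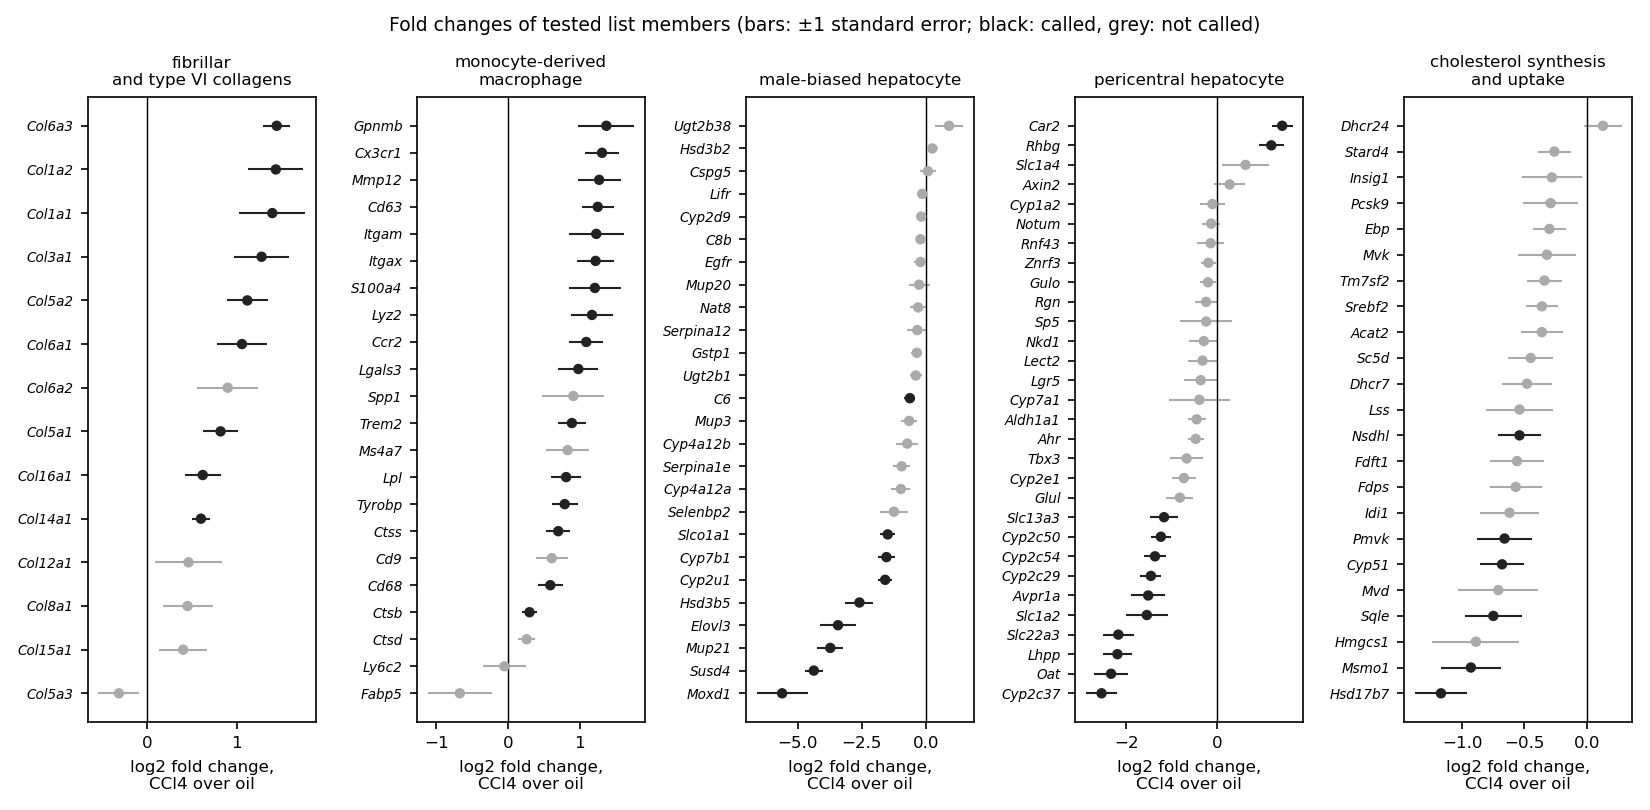
Log2 fold change (CCl4 over oil) of tested members of 5 lists, with bars of 1 SE, called genes in black and others in grey. Collagen and macrophage genes lie mostly right of 0 and male-biased, pericentral and cholesterol genes mostly left of it, with Car2 and Rhbg the called exceptions among pericentral genes.

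Calls for cholesterol synthesis were all lower, and their number depended on single libraries. Of 25 genes of synthesis and uptake, 24 had a negative fold change, 6 were called lower and 0 higher (median -0.48). Over all tested genes 3.36% were called lower. Without the 4 libraries 8 were called lower (median -0.61), beside 2.17% of all genes tested there. The count was 3 without any 1 of CCl4 replicates 4, 5 and 6 or oil replicates 1 and 4, 11 without oil replicate 2, 3 with no filter on low counts, and 2 under library totals alone, where Cyp51 and Sqle were not called. Oil replicate 2 had the lowest oil level of Hsd17b7 and Cyp51.

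Hsd17b7, which removes the keto group of a sterol intermediate (chromosome 1, 169949535 to 169969241), ranged from 26.3 to 38.3 CPM in CCl4 livers (median 32), against 51.3 to 85.4 CPM in oil livers (median 76.5). It fell by 1.17 (SE 0.21, adjusted p = 0.000284). Msmo1, a sterol demethylase, had medians of 162.6 CPM in CCl4 livers and 301.1 CPM in oil livers (log2 fold change -0.93, SE 0.24), and both genes held throughout. Cyp51 (-0.68, SE 0.18) and the squalene epoxidase gene Sqle (-0.75, SE 0.23) fell, Sqle with its call lost without any 1 of CCl4 replicates 2, 4, 5 and 6 or oil replicates 1, 3 and 4. Nsdhl and Pmvk were the other called genes. The regulator gene Srebf2 was not called with all libraries (-0.36, SE 0.13, adjusted p = 0.0668) and was called without the 4 libraries (-0.47, adjusted p = 0.0452).

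Genes of this pathway are textbook targets of SREBP2, a factor that works beside NF-Y at CCAAT boxes, and their promoters are shown because the called members all fell. RefSeq windows of 250 bases before to 50 after each start (GRCm38.p6) were found for 17 of the 25 genes, and 16 of these 17 (94.1%) held CCAAT on 1 strand or the other, against 41.1% of 27025 genes with a window and 42.6% of 11151 tested genes with one. The letters TCACNCCAC, a core of the sterol regulatory element, were found on either strand in 1 of the 17, Hmgcs1 (5.88%), against 1.44% of all genes with a window, and in 0 of the 5 called genes with one. A match describes the letters and not a bound site. Windows of 4 called genes follow, 5′ to 3′ on the strand of the gene, with CCAAT or its reverse complement ATTGG in capitals (chr1:169969156-169969455, chr8:64733529-64733828, chr5:4104648-4104947 and chrX:72918271-72918570, on the minus, minus, minus and plus strand).
Hsd17b7: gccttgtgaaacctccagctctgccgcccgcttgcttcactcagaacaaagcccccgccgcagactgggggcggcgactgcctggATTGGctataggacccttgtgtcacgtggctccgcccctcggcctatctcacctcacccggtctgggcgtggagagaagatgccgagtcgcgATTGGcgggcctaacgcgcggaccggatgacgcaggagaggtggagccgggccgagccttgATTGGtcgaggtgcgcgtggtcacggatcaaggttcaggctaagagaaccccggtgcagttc
Msmo1: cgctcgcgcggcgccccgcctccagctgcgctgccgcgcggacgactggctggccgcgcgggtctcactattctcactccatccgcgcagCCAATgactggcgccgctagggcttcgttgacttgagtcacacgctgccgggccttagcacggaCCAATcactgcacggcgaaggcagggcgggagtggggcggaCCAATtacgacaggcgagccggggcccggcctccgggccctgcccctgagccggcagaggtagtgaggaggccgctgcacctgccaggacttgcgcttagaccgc
Cyp51: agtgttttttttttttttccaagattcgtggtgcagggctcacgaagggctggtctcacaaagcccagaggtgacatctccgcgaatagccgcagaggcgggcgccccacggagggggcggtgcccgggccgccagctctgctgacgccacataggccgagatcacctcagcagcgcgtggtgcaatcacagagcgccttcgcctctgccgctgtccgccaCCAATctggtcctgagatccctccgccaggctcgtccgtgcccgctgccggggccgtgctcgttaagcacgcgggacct
Nsdhl: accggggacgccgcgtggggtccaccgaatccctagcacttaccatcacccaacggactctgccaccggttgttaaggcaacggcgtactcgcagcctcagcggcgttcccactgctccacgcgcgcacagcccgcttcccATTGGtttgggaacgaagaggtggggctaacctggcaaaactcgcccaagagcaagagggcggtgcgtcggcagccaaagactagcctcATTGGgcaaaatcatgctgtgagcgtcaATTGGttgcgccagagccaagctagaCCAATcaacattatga
The box occurred 3 times in the windows of Hsd17b7 and Msmo1, once in that of Cyp51 and 4 times in that of Nsdhl.

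Other lipid genes moved in both directions. Of 15 lipid droplet and fatty acid uptake genes, 4 were called lower and 1 higher. Pparg, a nuclear receptor that promotes fat storage (chromosome 6, 115360951 to 115490399), ranged from 2.66 to 4.07 CPM in CCl4 livers (median 3.55), against 5.31 to 15.2 CPM in oil livers (median 8.60), a fall of 1.43 (SE 0.22, adjusted p = 5.21e-05). The droplet coat gene Plin4 fell by 1.40 (SE 0.32), while Lpl, a lipase that macrophages also make, rose by 0.81 (SE 0.21). Calls for Fitm1, Pparg, Plin4 and Lpl held throughout. Oil replicate 6 had the highest sum of adipose, mesothelial and muscle markers. Plin1, an adipose marker in that sum, was at 0.835 CPM there and highest in oil replicate 5 (3.19 CPM). Both libraries were among those left out in turn, and the part of adipose tissue in these levels was not tested.

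Of 19 fatty acid synthesis genes, 1 was called higher and 1 lower, beside 6.93% higher and 3.36% lower over all tested genes. Scd2, a desaturase, rose by 1.53 (SE 0.23) and Me1, which supplies NADPH, fell by 0.93 (SE 0.21). Fasn was not called (-0.42, SE 0.31). Of 34 genes of fatty acid oxidation, 4 were called lower and 0 higher (median -0.19), and 2 without oil replicate 5. Pex11a, which divides peroxisomes, ranged from 18.2 to 22.8 CPM in CCl4 livers and from 26.5 to 41.5 CPM in oil livers (log2 fold change -0.71, SE 0.12, adjusted p = 0.000181), the 1 of the 4 that held throughout. Cpt1a, the gate of mitochondrial oxidation, was not called (-0.08, SE 0.20).

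Bile acid synthesis had 4 lower calls and 0 higher among 17 genes (median -0.26), beside 3.36% of all tested genes called lower. Cyp8b1, which directs synthesis to cholic acid (chromosome 9, 121914356 to 121916305), ranged from 37.4 to 102.5 CPM in CCl4 livers (median 54.5), against 161.7 to 290.4 CPM in oil livers (median 198.3). It fell by 1.73 (SE 0.35, adjusted p = 0.00129), the 1 of the 4 calls that held throughout. The calls for Cyp7b1 (-1.55) and Cyp27a1 (-0.50) were lost without the 4 libraries, at fold changes of -1.36 (adjusted p = 0.0514) and -0.52 (adjusted p = 0.0509), and those for Cyp27a1 and Acox2 (-0.45) under library totals alone. Acox2 also lost its call without CCl4 replicate 5 or 6 or oil replicate 1, at -0.37 to -0.39. Cyp7a1, the rate-limiting enzyme, ranged from 115.7 to 460.8 CPM in CCl4 livers and from 157.4 to 715.2 CPM in oil livers (-0.39, SE 0.68).

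Calls in stress and defence lists can be set beside those over all tested genes, 6.93% higher and 3.36% lower. Of 29 targets of the oxidative stress factor NRF2 and genes of glutathione handling, 3 were called higher and 2 lower (median -0.09), and 3 in all without CCl4 replicate 6. Gstm3, a glutathione transferase (chromosome 3, 107963696 to 107969283), ranged from 55.9 to 108.8 CPM in CCl4 livers and from 16.9 to 43.3 CPM in oil livers (log2 fold change 1.22, SE 0.25, adjusted p = 0.00170), while Aox1 fell by 0.65 (SE 0.16) and Nqo1 was not called (0.25, SE 0.21). Of 16 endoplasmic reticulum chaperones, 0 were called by edgeR or limma-voom and 1 by DESeq2, with 3 at an unadjusted p below 0.05, and leaving out CCl4 replicate 1 or oil replicate 6 called 1. The interferon list had 1 call among 36, Oas1a (0.87, SE 0.20), which held throughout. Acute phase genes had 1 call among 28 with all libraries (Orm3) and 0 without CCl4 replicate 1. Saa1 spanned 63.0 to 2317.6 CPM in CCl4 livers and 31.9 to 731.4 CPM in oil livers.

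Of 46 cell cycle genes, 2 were called higher and 0 lower (median 0.35, and 0.40 without the 4 libraries), fewer than the share of all genes called higher. A positive fold change was found for 35 of the 46, and 14 had an unadjusted edgeR p below 0.05. Over all 15338 tested genes, 3749 had such a p. Cdk1, the kinase that drives entry into mitosis (chromosome 10, 69335146 to 69352938), ranged from 2.94 to 5.27 CPM in CCl4 livers (median 4.59), against 1.24 to 2.46 CPM in oil livers (median 1.75). It rose by 1.32 (SE 0.25, adjusted p = 0.000724) and held throughout. The count was 1 without any 1 of CCl4 replicates 1, 3 and 6 or oil replicates 1, 3, 4, 5 and 6, 4 without CCl4 replicate 4 and 6 without oil replicate 2. Mki67 ranged from 9.31 to 16.2 CPM in CCl4 livers and from 4.04 to 12.3 CPM in oil livers and was not called (0.85, SE 0.31, adjusted p = 0.0740), nor were Ccnd1 (0.02, SE 0.26) or the p53 target Cdkn1a (1.08, SE 0.62).

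Most secreted plasma proteins were not called. Of 27 complement genes 3 were called lower, C1rl (-0.42, SE 0.09) throughout, and library totals alone did not call any of these 3. The count was 1 without any 1 of CCl4 replicates 3, 5 and 6 or oil replicate 3. The apolipoprotein genes Apoa1 (-0.50, SE 0.16) and Apoa2 (-0.39, SE 0.13) were called lower, and both calls were lost under library totals alone, without the 4 libraries, and in 9 (Apoa1) and 11 (Apoa2) of the 12 fits that left out 1 library. Alb was not called (-0.35, SE 0.17, adjusted p = 0.185), although its CCl4 and oil ranges did not overlap. Tfpi, an inhibitor of coagulation, rose by 0.64 (SE 0.10, adjusted p = 4.56e-05) and held throughout. Of 22 respiratory chain genes 0 were called by edgeR or limma-voom and 2 by DESeq2, with 6 at an unadjusted p below 0.05, and 5 were called with the 12 month 2 libraries fitted alone. Of 20 clock genes 0 were called by all 3 tools, 1 had an unadjusted p below 0.05, and 1 was called without CCl4 replicate 1. Of 15 hepatocyte transcription factors 0 were called by edgeR and 1 each by DESeq2 and limma-voom, with 4 at an unadjusted p below 0.05. Leaving out CCl4 replicate 5 or 6, or oil replicate 4 or 6, called 1 of them.

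The effect of CCl4 differed between month 12 and month 2 for 3253 of the 15338 tested genes (21.2%), by the interaction term of the same fit. Among the 24 genes with the highest and lowest fold changes at month 2, which were chosen for large month 2 values, 13 differed and 11 were not called. Mup12 and Mup9 had log2 fold changes of -11.88 and -9.66 at month 12, against -4.01 and -3.71 at month 2 (differences -7.87, SE 0.91, and -5.95, SE 0.79). The reverse held for Cyp2c69, Cyp2c40 and Cyp2c38, whose fold changes were 0.14, 0.31 and 0.21 at month 12, against -5.78, -4.22 and -3.59 at month 2. Cyp2c38 averaged 13.2 ± 4.80 CPM in CCl4 livers and 11.4 ± 3.37 CPM in oil livers at month 12 (SD, n = 6 each), and the difference of its effects was 3.80 (SE 0.52, adjusted p = 2.75e-06).

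Cyp26a1 and Clec4e, higher at month 2, had fold changes of 0.50 (SE 0.35) and -0.58 (SE 0.44) at month 12, neither of them called (differences -1.85, SE 0.49, and -2.62, SE 0.62). Fitm1 was at -0.70 (SE 0.50) at month 12, against -5.58 at month 2 (difference 4.88, SE 0.80, adjusted p = 4.29e-05). Tcf24 and Wfdc2 had fold changes of 4.90 and 3.68 at month 12, against 2.87 and 1.83 at month 2. Mup19, Hamp2, Scube1, Mmp2 and Col4a5 were among the 11 without a called difference, with month 12 fold changes of -9.55, 2.39, 3.70, 1.05 and 2.06. Month 12 libraries are also older animals, and age and duration of injury cannot be told apart in this contrast.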

How the data were processed

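Total RNA of mouse liver was extracted with TRIzol, depleted of ribosomal RNA, and made into stranded paired-end libraries, per the labels' protocols. The deposited table holds read counts per gene symbol, which the authors obtained by mapping in Biojupies, per the labels' protocols, on mm10, and the submitters' processing notes also name edgeR 3.30.3 and limma 3.44.3. The annotation, the counter, the treatment of reads with several matches, and whether whole numbers are rounded estimates are not stated in the labels or notes.

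The deposited counts of all 36 libraries were fitted with edgeR 4.0.16 in R 4.3.3 (TMM scaling, quasi-likelihood test, Benjamini-Hochberg adjustment) on genes passing edgeR's default low-count filter, filterByExpr with the groups as design. Alternatives were other scalings, filters and fits, each library left out in turn, and, added after the data were seen, the pancreas level as a covariate. They included DESeq2 1.42.0 and limma-voom (limma 3.58.1). The scripts were tested on simulated data. Named genes are the 12 highest and 12 lowest fold changes among genes called with and without the 4 libraries, averaging 1 CPM or more, without overlap, up to 4 members per list by p with those against the list's direction, and a fixed panel. Elovl3, Hsd3b5, Mup20, Mup3, Ly6c2, Spp1, Axin2, Lgr5, Cyp1a2 and Cyp3a11, and members given only as called or lost, were named after their values were seen. The genes and lists were chosen with earlier results of these data known. All 30 pairs of replicates differed by more than counting noise (lowest chi-square per degree of freedom 32). A few genes of the lists are counted in them but not reported here by name.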

Additional observations from a re-analysis of the deposited data

Results flagged for a closer look

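Single libraries stood far from the other 5 of their group, by Dixon's test, in 46 of 404 checks of a named gene or marker sum within a group. Chance alone gives about 1 in 20 in independent checks. These checks were not independent, since many genes were named for their calls and genes of the same tissue were high together in 1 library. The count is therefore a description and not a test against that share. CCl4 replicate 6 was highest for gut genes, with 123.7 CPM of Slc5a1, 64.8 of Lyz1, 57.3 of Vil1, 47.5 of Krt20, 33.2 of Epcam, 29.2 of Heph, 24.3 of Krt19, 13.9 of Cftr and 1.92 of Cldn4, and also for Gzma (6.63 CPM) and Afp (3.88 CPM). The other CCl4 livers had at most 6.30 CPM of any of these 11 genes. CCl4 replicate 1 was highest for the blood cell genes S100a9 (104.6 CPM), S100a8 (78.9 CPM), Slc4a1 (12.7 CPM), Ltf (11.8 CPM) and Retnlg (7.09 CPM), and for the marker sums of neutrophils (249.4 CPM) and of erythroid cells and platelets (7392.4 CPM). It was also highest for C1rl (100 CPM) and Esm1 (5.72 CPM) and lowest for Mmp12 (16.4 CPM).

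CCl4 replicate 2 was lowest for Lum (39.7 CPM), Clec7a (30.7 CPM), Cd63 (9.81 CPM) and Tenm3 (1.26 CPM), and highest for Mup15 (18.6 CPM) and Moxd1 (1.26 CPM). CCl4 replicate 5 was highest for Cyp2c69 (0.299 CPM). Oil replicate 2 was highest for Slc5a1 (4.00 CPM), Nusap1 (2.38 CPM), Vil1 (2.11 CPM) and Krt20 (1.01 CPM), and lowest for Cyp51 (152.4 CPM), Hsd17b7 (51.3 CPM), Rdh11 (48.4 CPM) and Fbn2 (0.0440 CPM). Oil replicate 5 was highest for Apoa2 (5594.1 CPM), Cyp2c38 (36.1 CPM) and Cyp2b9 (11 CPM) and lowest for Rarg (2.01 CPM). Oil replicate 1 was highest for Cyp2c40 (59.0 CPM) and Cyp2c69 (17.6 CPM), and oil replicate 3 lowest for Mup12 (288.0 CPM). Oil replicate 6 was highest for the adipose, mesothelium and muscle sum (162.9 CPM) and lowest for Cbr1 (24.6 CPM) and Gstm3 (16.9 CPM).

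The CCl4 effect differed between month 12 and month 2, by the interaction term, for 13 of the 24 genes with the highest and lowest fold changes. The difference, month 12 minus month 2 on the log2 scale, was 5.92 for Cyp2c69, 4.88 for Fitm1, 4.53 for Cyp2c40, 3.80 for Cyp2c38, 2.04 for Tcf24, 1.85 for Wfdc2 and 1.65 for Nxpe2. It was -1.85 for Cyp26a1, -2.62 for Clec4e, -4.04 for Mup17, -4.90 for Mup15, -5.95 for Mup9 and -7.87 for Mup12.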

How the results depend on the processing

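The count of 1579 called genes (1063 higher, 516 lower) was 3329 (3150 and 179) under library totals alone and 877 (539 and 338) without the 4 libraries. Lower calls were 827 with the 12 month 2 libraries fitted alone and 808 with DESeq2. Leaving out 1 library gave 1106 to 1745 calls, 766 to 1149 higher and 335 to 596 lower. Among named genes called with all libraries, those that changed sign were Cftr (-0.09 with limma-voom, -0.45 without the 4 libraries, -1.12 without CCl4 replicate 6), Vil1 (-0.31 and -1.26 in the last 2 of these), Slc5a1 (-0.66) and Krt20 (-1.63), both without CCl4 replicate 6. Their fold changes without 1 library lay between these last values and 3.90 for Cftr, 5.38 for Vil1, 4.77 for Slc5a1 and 9.25 for Krt20, the highest all without oil replicate 2. The cause was not tested. With the replicate number as a block, 1476 genes were called (999 higher, 477 lower). Same-numbered libraries had correlations of -0.464 to 0.0499, and 0 of 6 CCl4 libraries correlated best with the oil library of their number. These values gave no sign of pairing by number, but cannot show whether same-numbered samples shared a batch. Counts of 22078882 to 28917545 per library limit genes under about 1 CPM most.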

Other observations

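Some of the smallest p-values belonged to genes outside the lists, named here after their values were seen. Tenm3, a cell adhesion protein of the teneurin family (chromosome 8, 48227682 to 48843951, mm10), ranged from 1.26 to 2.61 CPM in CCl4 livers, against 15 to 23.9 CPM in oil livers. It fell by 3.17 on the log2 scale (SE 0.17, edgeR adjusted p = 4.99e-15). Npr2, a natriuretic peptide receptor, fell by 1.86 (SE 0.19), with 6.65 to 10.8 CPM in CCl4 livers and 25.9 to 38.7 CPM in oil livers. Ncapd2, a condensin subunit, ranged from 291.9 to 336.9 CPM in CCl4 livers and from 120.4 to 152.6 CPM in oil livers (log2 fold change 1.23, SE 0.11). Itga8, an integrin of mesenchymal cells (1.54, SE 0.16), the kinase gene Src (1.28, SE 0.14), Igfbp7 (0.73, SE 0.09) and the myeloid receptor genes Sirpa (1.22, SE 0.15) and Clec7a (1.40, SE 0.19) rose as well. All these calls held in each fit that left out 1 library and without the 4 libraries, and the groups did not overlap.

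Replication-dependent histone genes, a list made after seeing values, had 14 of 61 tested members called higher and 0 lower (median 0.41), with 12 called higher without the 4 libraries and 9 in every fit that left out 1 library. Hist1h4n ranged from 28.6 to 37.9 CPM in CCl4 livers and from 5.98 to 15.9 CPM in oil livers (log2 fold change 1.73, SE 0.24). Histone genes are close copies, so values may be shared between them. Of 20 tested Mup genes, 15 were called lower and 0 higher (median -2.26), 9 without the 4 libraries and 12 in every fit that left out 1 library. Of 25 retinoid-handling genes, 5 were called higher and 2 lower, and 2 and 2 without the 4 libraries. Among them the retinoic acid receptor gene Rarb rose by 0.79 (SE 0.15) and the retinol dehydrogenase gene Rdh11 fell by 0.84 (SE 0.23), and both calls held in every such fit.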
